A study of Homo sapiens with 6 samples.

Results

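The loci described here are positions of accessible chromatin that were called with one short hairpin RNA against HNRNPU and not with the other. They come from ATAC-seq of H1, an established line of human pluripotent stem cells, in which a transposase inserts adapters where chromatin is open. Cells were grown on Matrigel in mTeSR1, infected with lentivirus that carried hairpin shHNRNPU #1, hairpin shHNRNPU #2 or the control hairpin shLUC against luciferase, and selected with puromycin. Each of the 3 groups had 2 libraries, numbered repeat 1 and repeat 2, made from about 50000 cells with 17 PCR cycles. All groups therefore shared the virus, the selection and the line, and nothing in the labels says whether the repeats were separate infections, so that spreads and p-values cover only these libraries. For each library the authors deposited the summits of its peaks, single positions with a score that is −log10 of a q-value. Scores are not normalized between libraries, the depth of reading is unknown, and where no summit is listed the site may be closed or may have missed the caller's threshold.

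The 4 shHNRNPU lists held 233156 summits. They were pooled, the summit with the highest score percentile within its own list was taken first, summits within 250 bp were merged into it, and the procedure was repeated until every summit was assigned, which gave 100556 loci. A list held a locus when it had any summit within 250 bp of the centre of the locus, so the same summit could count for neighbouring loci. A locus was specific to a hairpin when it had a summit in both lists of that hairpin and in neither list of the other. There were 5817 such loci, of which 3810 were of shHNRNPU #1 and 2007 of shHNRNPU #2. They made up 3.79% and 2.00% of all loci, and no shLUC library was used to choose them.

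HNRNPU, also called SAF-A, is an abundant nuclear protein that binds RNA and is a component of the nuclear matrix. A hairpin RNA is processed by the cell's RNA interference machinery into a guide that directs degradation of its target transcript, and each guide can also act on other transcripts that match it in part. Hairpins of different sequence against the same gene are used side by side for this reason: a change that both give is less likely to stem from the sequence of either. In pluripotent cells most strongly accessible sites are promoters, while enhancers and weaker sites are more often particular to a cell state.

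At the strongest hairpin-specific loci, often near a gene start, both hairpins had a summit within 1000 bp and differed in its position. The lists give no extent of peaks, so whether such summits share the same open region is not known. The promoter windows of 6 genes are shown because the centre of such a locus lay inside each. They are 300 bases of RefSeq sequence (GRCh38.p14), 5′ to 3′ on the strand of the gene, with 250 bases before the start and 50 after it. The 11 bases around the centre of the locus are in capitals. SDCCAG8 (chr1:243255791-243256090, plus strand), TSEN34 (chr19:54190481-54190780, plus strand) and ORC6 (chr16:46689409-46689708, plus strand) held loci of shHNRNPU #1. CEP170 (chr1:243255232-243255531, minus strand), MZF1 (chr19:58573286-58573585, minus strand) and DPY19L1 (chr7:35037436-35037735, minus strand) held loci of shHNRNPU #2.
SDCCAG8: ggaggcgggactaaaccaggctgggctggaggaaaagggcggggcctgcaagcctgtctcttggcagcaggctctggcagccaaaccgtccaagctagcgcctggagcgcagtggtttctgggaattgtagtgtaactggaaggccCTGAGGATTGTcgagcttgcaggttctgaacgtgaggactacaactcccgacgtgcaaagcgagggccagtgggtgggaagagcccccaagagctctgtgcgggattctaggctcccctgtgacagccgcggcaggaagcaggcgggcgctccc
CEP170: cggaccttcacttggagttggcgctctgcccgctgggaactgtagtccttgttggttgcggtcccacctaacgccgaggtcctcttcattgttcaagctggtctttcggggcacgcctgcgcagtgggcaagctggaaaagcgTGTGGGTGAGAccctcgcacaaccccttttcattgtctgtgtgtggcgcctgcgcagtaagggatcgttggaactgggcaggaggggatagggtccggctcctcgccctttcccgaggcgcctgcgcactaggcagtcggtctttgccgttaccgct
TSEN34: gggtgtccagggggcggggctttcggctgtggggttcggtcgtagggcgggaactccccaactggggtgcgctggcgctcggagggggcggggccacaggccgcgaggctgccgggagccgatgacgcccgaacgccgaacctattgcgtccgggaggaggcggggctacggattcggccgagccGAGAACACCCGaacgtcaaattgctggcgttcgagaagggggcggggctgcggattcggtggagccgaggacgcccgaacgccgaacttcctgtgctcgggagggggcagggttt
MZF1: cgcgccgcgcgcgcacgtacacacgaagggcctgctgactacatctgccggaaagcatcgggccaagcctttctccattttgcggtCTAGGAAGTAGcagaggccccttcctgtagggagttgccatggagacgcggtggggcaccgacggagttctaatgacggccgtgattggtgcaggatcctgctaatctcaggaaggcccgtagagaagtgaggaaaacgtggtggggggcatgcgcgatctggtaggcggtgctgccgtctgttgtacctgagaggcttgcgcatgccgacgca
ORC6: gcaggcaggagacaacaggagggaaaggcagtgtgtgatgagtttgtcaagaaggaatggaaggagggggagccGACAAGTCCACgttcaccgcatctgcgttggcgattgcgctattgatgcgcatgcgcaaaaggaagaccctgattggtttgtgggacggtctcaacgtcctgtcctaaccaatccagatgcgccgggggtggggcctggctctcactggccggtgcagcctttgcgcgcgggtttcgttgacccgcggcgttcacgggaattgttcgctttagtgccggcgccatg
DPY19L1: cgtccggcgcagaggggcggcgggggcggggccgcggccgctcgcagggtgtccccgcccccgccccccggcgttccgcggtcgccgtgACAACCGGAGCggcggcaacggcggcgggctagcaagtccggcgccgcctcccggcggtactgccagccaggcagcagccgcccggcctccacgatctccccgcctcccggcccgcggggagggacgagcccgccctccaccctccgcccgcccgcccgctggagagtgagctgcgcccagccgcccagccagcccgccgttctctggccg
The SDCCAG8 and CEP170 windows lie on opposite strands of the same promoter region, and their centres were 559 bp apart. SDCCAG8 and CEP170 both encode centrosomal proteins. At the SDCCAG8 centre, chr1:243255942, the score was 62.8 in shHNRNPU #1 repeat 1 and 55.3 in repeat 2. At the CEP170 centre, chr1:243255383, it was 48.2 in shHNRNPU #2 repeat 1 and 72.1 in repeat 2. Every library had a single summit within 1000 bp of the SDCCAG8 centre, at one of these positions, and the shLUC libraries were divided: repeat 1 had its summit 74 bp from the SDCCAG8 centre with a score of 65.3, and repeat 2 had it 6 bp from the CEP170 centre with a score of 55.2.

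The same arrangement was found at the promoters of GSK3B, a kinase that restrains Wnt signalling, of VAPA, a membrane protein of the endoplasmic reticulum, of MZF1, a zinc finger transcription factor, of TMEM87B, a Golgi membrane protein, and of TSEN34 and MBOAT7, which encode a subunit of the tRNA splicing endonuclease and a lysophospholipid acyltransferase. At each of these 6 promoters, SDCCAG8 with CEP170 included, the centres of a locus of shHNRNPU #1 and a locus of shHNRNPU #2 lay 366 to 792 bp apart. At GSK3B the shHNRNPU #1 summits scored 59.3 and 51.9 and the shHNRNPU #2 summits, 424 and 417 bp from the shHNRNPU #1 centre, 47.0 and 50.2. At MZF1 the shHNRNPU #1 summits scored 54.2 and 51.6 and the shHNRNPU #2 summits, 555 and 576 bp from it, 31.6 and 47.2. At VAPA the shHNRNPU #1 summits scored 53.6 and 55.2 and the shHNRNPU #2 summits, 366 and 309 bp from it, 34.4 and 34.0. At TMEM87B the shHNRNPU #1 summits scored 49.8 and 49.5 and the shHNRNPU #2 summits 33.5 and 33.5. At TSEN34 and MBOAT7 the scores were 50.8 and 47.5 in shHNRNPU #1 and 41.6 and 54.8 in shHNRNPU #2. The promoters were picked by these same scores, which are not normalized between libraries. Which hairpin scored higher at them is therefore not a result. Of the 12 shLUC readings over these promoters, 3 had a summit at the position of shHNRNPU #1 alone, 8 at that of shHNRNPU #2 alone, and 1 had a summit within 250 bp of both.

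**Figure D1:**
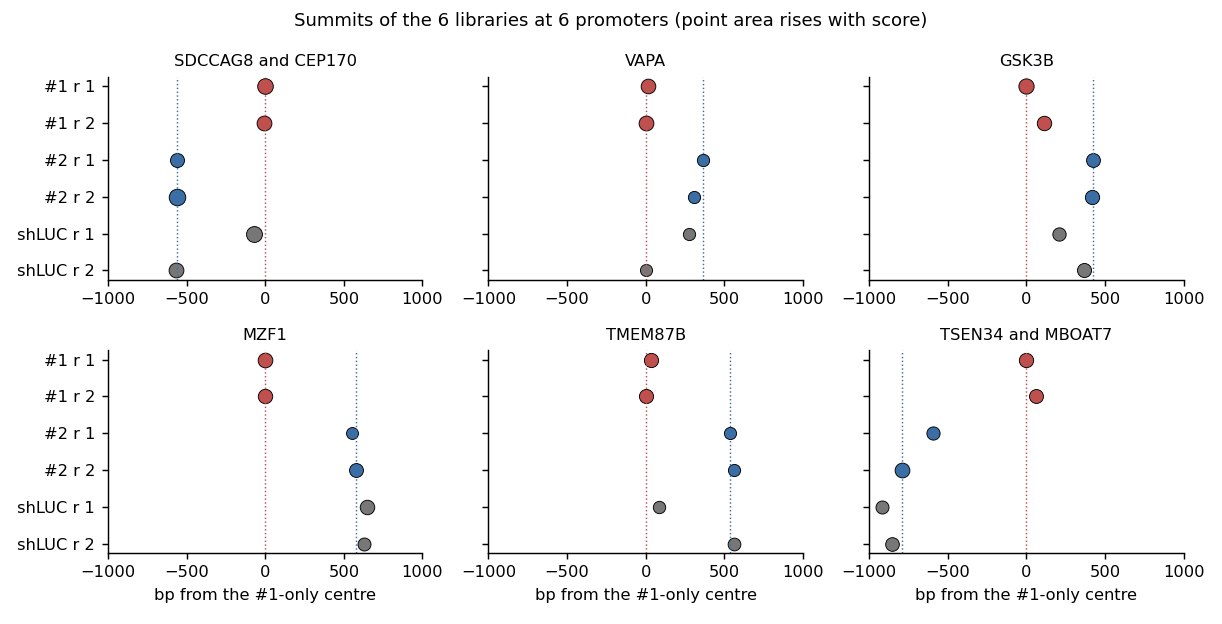
Summits of the 6 libraries within 1000 bp of the shHNRNPU #1 centre at 6 promoters. The horizontal axis is the distance in bp from that centre in the direction of rising coordinates, each row is a library (r, repeat), point area rises with the score, and dotted lines mark the centres of the shHNRNPU #1 locus (red) and the shHNRNPU #2 locus (blue). Each library has 1 summit per promoter. The grey shLUC points stand near either position, except at GSK3B, where that of repeat 1 lies between them, 205 bp from the shHNRNPU #1 centre.

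At ORC6, a subunit of the origin recognition complex, and at DPY19L1, a mannosyltransferase, the other hairpin's summit was just past the match distance. The ORC6 centre had scores of 55.2 and 44.7 with shHNRNPU #1 and the nearest shHNRNPU #2 summit lay 256 bp away. The DPY19L1 centre had scores of 34.4 and 41.7 with shHNRNPU #2 and the nearest shHNRNPU #1 summit lay 254 bp away. Both shLUC libraries had a summit within 250 bp of each of these 2 centres. At the limit itself, 349 loci in both shHNRNPU #1 lists had their nearest shHNRNPU #2 summit at over 250 and up to 300 bp, and so were counted, and 421 had it at over 200 and up to 250 bp, and so were not. For shHNRNPU #2 these numbers were 319 and 250.

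The highest of all by score percentile was a locus of shHNRNPU #1 at SP1 (chr12:53379629), which encodes a transcription factor that binds GC boxes, 547 bp from the start. Its summits scored 69.7 and 59.8, and those of shHNRNPU #2 lay 325 and 347 bp away. RBM15, an RNA-binding component of the m6A methyltransferase complex, had a shHNRNPU #1 locus 387 bp from its start (chr1:110338990) with scores of 59.7 and 56.7, and shHNRNPU #2 summits 275 and 280 bp away. DCTN4, a dynactin subunit, had one 59 bp from its start (chr5:150758958) with scores of 41.9 and 41.5. Neither shLUC library had a summit within 250 bp at RBM15 or DCTN4, although each had one within 320 bp.

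Among the loci of shHNRNPU #2 those near a gene start beside the ones above included SECISBP2, which is required for selenocysteine incorporation (chr9:89318790), with scores of 37.4 and 34.8 and a shHNRNPU #1 summit just past the match distance. UBE2E3, a ubiquitin-conjugating enzyme (chr2:180980724), followed with 26.3 and 34.2. RBPJ, the DNA-binding factor of Notch signalling, had one 307 bp from a start (chr4:26320707) with 25.7 and 40.9, and a shHNRNPU #1 summit 986 bp away. At UBE2E3 and RBPJ no shLUC summit lay within 250 bp, and the nearest lay 371 and 978 bp away.

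Hairpin-specific loci with a high score in both lists all had a summit of the other hairpin close by. Of the loci whose lower score percentile was above 90, 25 were of shHNRNPU #1 and 10 of shHNRNPU #2, and all 35 had a summit of the lacking hairpin within 1000 bp. Above percentile 50 this held for 271 of 340 (79.7%) and 237 of 288 (82.3%). Over all members it held for 1199 of 3810 (31.5%) of shHNRNPU #1 and 926 of 2007 (46.1%) of shHNRNPU #2. The median distance to the nearest summit of the lacking hairpin was 5496 bp for shHNRNPU #1 and 1579 bp for shHNRNPU #2. A locus of one hairpin with a locus of the other within 1000 bp, as at the 6 promoters, was found for 218 members of each hairpin. When repeat 1 of both hairpins was set against repeat 2 of both, the numbers were 186 and 189. When shHNRNPU #1 repeat 1 with shHNRNPU #2 repeat 2 was set against the other libraries, they were 232 and 229, so such neighbours arose about as often without regard to hairpin.

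**Figure D2:**
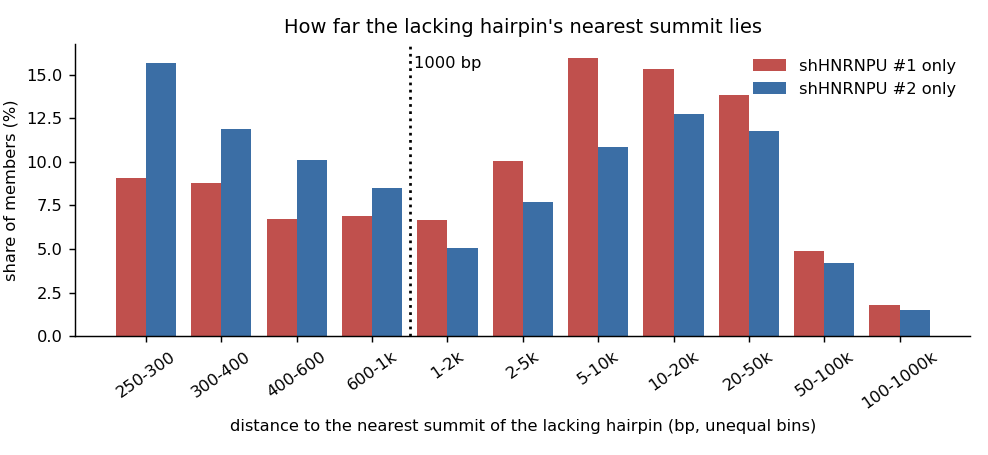
Share of hairpin-specific loci, in percent, by the distance in bp to the nearest summit of the hairpin that lacks them, in bins of unequal width. Red bars are shHNRNPU #1 and blue bars shHNRNPU #2, and the dotted line marks 1000 bp, to the left of which lay 31.5% and 46.1%.

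Where the lacking hairpin had no summit within 1000 bp, scores were lower. The highest such locus of shHNRNPU #1 was at percentile 76.9, at the start of IQSEC3 (chr12:66925), an exchange factor for ARF GTPases, with scores of 22.4 and 16.6 and the nearest shHNRNPU #2 summit 12668 bp away. Both shLUC libraries also had a summit there, with scores of 5.07 and 6.82. Next was a site 76538 bp from NEK3, a kinase (chr13:52236398), with 17.1 and 16.6. A site inside TNFSF8, the CD30 ligand (chr9:114925873), at percentile 72.1 had 14.4 and 15.5. The shLUC summits at the NEK3 and TNFSF8 sites scored 19.7 and 27.3, and 22.1 and 18.3. Scores are not normalized between libraries, so which group scored higher there is not a result. TUBB, a beta-tubulin (chr6:30721505), had 19.4 and 12.7 with shHNRNPU #1 and 11.3 in shLUC repeat 2 alone.

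The highest of shHNRNPU #2 beyond 1000 bp was at percentile 78.1, 98 bp from a start of ELF2, an ETS transcription factor (chr4:139084322), with scores of 18.1 and 19.1 and the nearest shHNRNPU #1 summit 1261 bp away. TOB1, an antiproliferative protein (chr17:50867695), had 14.4 and 17.7 with shHNRNPU #2. A site inside OXR1, an oxidation resistance gene, had 16.3 and 16.6 and the nearest shHNRNPU #1 summit 37101 bp away. Both shLUC libraries had a summit at ELF2, TOB1 and OXR1, at OXR1 with scores of 29.8 and 18.4. KIAA0232 (chr4:6783622) had 11.99 and 26.2, and 13.9 in shLUC repeat 2 alone. LDB1 and PPRC1, which encode an adaptor of LIM-domain factors and a transcriptional coactivator, had a locus of each hairpin 1084 bp apart, with 14.9 and 15.2 for shHNRNPU #1 (chr10:102120371) and 15.0 and 20.1 for shHNRNPU #2 (chr10:102121455). Of the 69 shHNRNPU #1 loci beyond 1000 bp and above percentile 50, 5 lacked a shLUC summit in both control libraries, and of the 51 of shHNRNPU #2, 8 did.

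Most hairpin-specific loci were weak calls. The median of the lower score percentile was 19.1 for shHNRNPU #1 and 19.99 for shHNRNPU #2, against 59.3 for the 30089 loci found in all 4 lists. The median score of the shHNRNPU #1 loci was 4.57 in repeat 1 and 4.64 in repeat 2. For shHNRNPU #2 it was 4.56 in repeat 1 and 5.01 in repeat 2. Of all loci in both shHNRNPU #1 lists, the share absent from shHNRNPU #2 fell from 37.0% (1054 of 2852) up to percentile 10 to 0.512% (25 of 4881) above percentile 90. For shHNRNPU #2 it fell from 22.5% (529 of 2350) to 0.232% (10 of 4310). These values describe how the members were chosen. In pairs of libraries from different hairpins the share also fell, from between 26.9% and 36.7% to between 0.178% and 0.280%. Above percentile 90 the split by hairpin gave the most such loci, 35, against 21 for the split by repeat number and 23 for the crossed split.

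**Figure D3:**
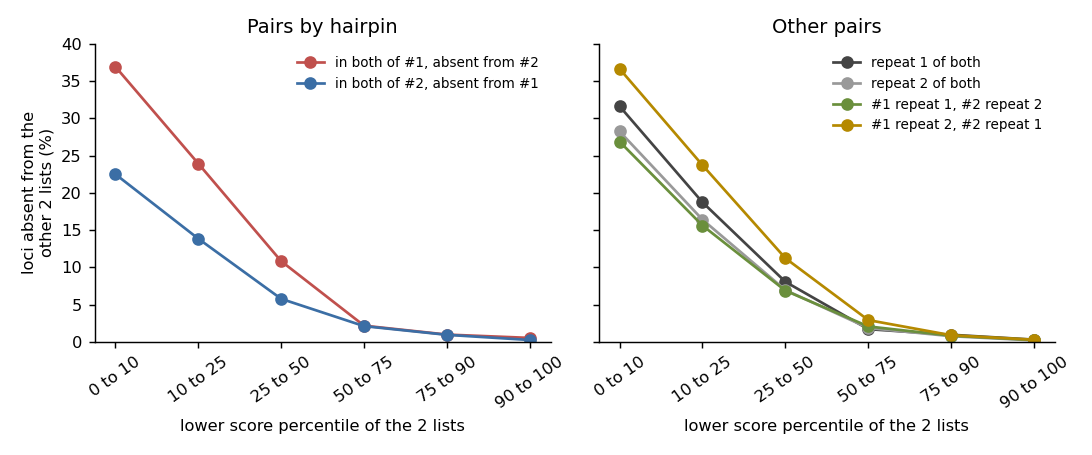
Share of loci found in both lists of a pair that were absent from the other 2 lists, in percent, by the lower score percentile of the pair. The left panel shows the pairs by hairpin and the right panel the 4 pairs that mix hairpins. All lines fall from over 20% at the weakest loci to under 1% at the strongest.

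The count of hairpin-specific loci was set beside the counts that the same libraries give when divided without regard to hairpin. The 4 libraries can be split into 2 pairs in 3 ways: by hairpin, by repeat number (repeat 1 of both hairpins against repeat 2 of both), and crossed (shHNRNPU #1 repeat 1 with shHNRNPU #2 repeat 2 against the others). The split by repeat number gave 5347 loci in both lists of a pair and neither of the other, 2849 and 2498. The crossed split gave 6177, 2432 and 3745. The hairpin count of 5817 lay between them (exact permutation test over the 3 pairings, one-sided, p = 0.667, where the smallest possible p is 0.333). No division of 4 libraries can reach a p of 0.05.

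shHNRNPU #1 had both the longer lists and more specific loci. The shHNRNPU #1 lists had 59055 and 63519 summits and the shHNRNPU #2 lists 58414 and 52168, with no overlap (difference of means 5996, exact permutation test over 6 assignments, two-sided, p = 0.333, the smallest possible), while shLUC had 62191 and 61373. With the 52168 best-scored summits of each list, there were 2594 loci of shHNRNPU #1 and 2193 of shHNRNPU #2, and with a minimum score of 5 there were 2428 and 1142. The part of list length in the excess was not tested further. When a library was left out, so that 1 list stood for a hairpin, the numbers were 16395 and 4482 without shHNRNPU #1 repeat 1, 13550 and 5074 without shHNRNPU #1 repeat 2, 8136 and 8351 without shHNRNPU #2 repeat 1, and 7600 and 12278 without shHNRNPU #2 repeat 2. In each case the hairpin with 1 list left gained the most loci.

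Overlap of whole lists showed the same. The Jaccard index, the loci shared by 2 lists divided by the loci in either, was 0.516 between the repeats of shHNRNPU #1 and 0.507 between the repeats of shHNRNPU #2. Between hairpins it was 0.505 and 0.527 for shHNRNPU #1 repeat 1 with shHNRNPU #2 repeats 1 and 2. For shHNRNPU #1 repeat 2 it was 0.505 and 0.510 with the same lists. The highest value was thus between libraries of different hairpins, and the mean within hairpins exceeded the mean between hairpins by 1.22e-05 (exact permutation test over 3 pairings, one-sided, p = 0.667).

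**Figure D4:**
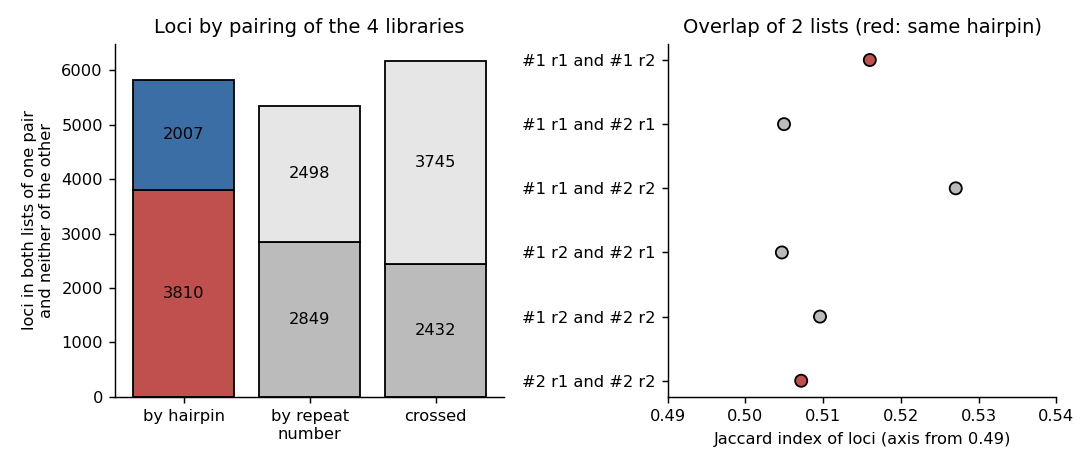
Left, number of loci in both lists of a pair and neither list of the other for the 3 ways to pair the 4 libraries, with the counts of each pair written in the bars. Right, Jaccard index of each pair of lists (r, repeat), on an axis that does not start at 0, with pairs of the same hairpin in red. The hairpin bar stands between the others, and the red points lie among the grey ones.

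At loci called in all 4 lists, hairpins were compared by score percentile. In 10350 of 30089 loci (34.4%) the percentiles of the hairpins did not overlap, against 31.0% when the libraries were split by repeat number and 34.6% when crossed (exact permutation test over 3 pairings, one-sided, p = 0.667). The hairpin share was the highest of the 3 in 2 alternatives, with 35.1% against 31.8% and 33.1% at a minimum score of 5, and with 34.7% against 30.9% and 34.4% at a match distance of 500 bp (exact permutation test, p = 0.333 in both, the smallest possible). Of the 10350, shHNRNPU #1 was higher in 7229 and shHNRNPU #2 in 3121. With lists of one length, 4897 and 4723 of 28563 loci had shHNRNPU #1 and shHNRNPU #2 higher. Percentiles are ranks within a list and move with its length, so neither split gives a direction of change.

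Hairpin-specific loci were less often at promoters than loci found in all lists. A start of a protein-coding gene, known for 79.1% of these genes, lay within 2000 bp of 547 (14.4%) of the shHNRNPU #1 loci and of 366 (18.2%) of the shHNRNPU #2 loci, against 32.8% of loci in all 4 lists, 9.22% of loci in a single list and 18.2% of all loci. The difference between the hairpins was −3.88 percentage points (95% interval −5.90 to −1.86, which covers counting error only and takes loci as independent). The same difference was −0.72 between the pairs by repeat number and 4.82 between the crossed pairs, so a gap of this size also arose without regard to hairpin. It was 0.43 with lists of one length and 2.49 among loci with no summit of the lacking hairpin within 1000 bp. With a library left out it ranged from −9.34 without shHNRNPU #1 repeat 1 to 5.85 without shHNRNPU #2 repeat 2, and was −7.07 and 0.37 without shHNRNPU #1 repeat 2 and shHNRNPU #2 repeat 1.

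Members near a gene start were concentrated among those with a summit of the lacking hairpin close by. Whether such a summit was a shifted one or a separate site was not tested. With a summit of the lacking hairpin within 1000 bp, 30.9% of shHNRNPU #1 loci and 34.6% of shHNRNPU #2 loci were near a start. Beyond 1000 bp it was 6.74% (176 loci) and 4.26% (46 loci). The loci of the other pairings were not divided by this distance, so whether the contrast is particular to hairpin-specific loci was not tested. The near-start members fell to 525 genes for shHNRNPU #1 and 359 for shHNRNPU #2, of which 107 were in both, which is 20.4% and 29.8% of each. In the whole lists, 23.3% and 21.8% of shHNRNPU #1 summits and 23.03% and 25.5% of shHNRNPU #2 summits were near a start (difference of means −1.72 points, exact permutation test over 6 assignments, two-sided, p = 0.667), while shLUC had a mean of 21.8% (SD 0.23, n = 2).

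The promoter windows that held a member centre were rich in GC like other open promoters. There were 154 such windows for shHNRNPU #1 and 99 for shHNRNPU #2, with a mean GC content of 66.8% and 67.3%, against 66.4% for 8202 windows with a locus in all 4 lists and 60.9% for all 22174 windows. The GC box, searched as GGGCGG on both strands, occurred in 66.2% and 68.7% of the windows with a member, in 77.7% of those with a locus in all lists and in 56.3% of all windows. The ETS core CCGGAA, on both strands, occurred in 13.0% and 21.2%, against 33.8% and 21.2%. The CCAAT box, on both strands, occurred in 27.3% and 29.3%, against 41.8% and 34.7%. In each of these the members were below the loci in all lists. Windows with no locus had the GC box in 38.6%, the ETS core in 12.8% and the CCAAT box in 31.0%. Windows of the other pairings were not searched, so whether the lower shares are particular to hairpin-specific loci was not tested. The E-box CACGTG occurred in 8.44% and 5.05%, against 10.9% and 8.34%, and the TATA box TATAAA, on both strands, in 4.55% and 5.05%, against 3.95% and 9.47%. The octamer motif ATGCAAAT, on both strands, was in none of the members' windows and in 1.65% of all. Of the windows printed above, SDCCAG8 had 1 GC box, TSEN34 4 and DPY19L1 10, ORC6 had 2 CCAAT boxes, MZF1 had 1 ETS core and 1 CCAAT box, and CEP170 had none of these motifs.

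Many members lay in gene bodies. Inside a protein-coding gene lay 51.9% of the shHNRNPU #1 loci and 52.5% of the shHNRNPU #2 loci, and 49.6% of all loci. The difference between the hairpins was −0.58 points, beside −0.52 between the pairs by repeat number and 3.46 between the crossed pairs. NTM, a neural adhesion molecule, held 8 shHNRNPU #1 loci of 65 loci in its body (12.3%). PTPRN2, a receptor-type phosphatase, held 8 of 60 (13.3%) and TENM4, a teneurin, 6 of 40 (15.0%). PLCB1 held 5 of 14 (35.7%) and DAB1 4 of 62 (6.45%). For shHNRNPU #2, ZNF423 held 4 of 34 (11.8%), GSE1 4 of 62 (6.45%) and PTPRN2 4 of 60 (6.67%). Of all loci, 3.79% were of shHNRNPU #1 and 2.00% of shHNRNPU #2. The genes were picked by their counts, so these shares are not a test. They span from 372 kb for ZNF423 to 1552 kb for DAB1.

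Gene density around the members was higher for shHNRNPU #1 by less than 1 gene. The mean number of protein-coding genes within 500 kb was 10.4 for shHNRNPU #1 and 9.57 for shHNRNPU #2, against 12.2 for loci in all lists and 8.86 for loci in a single list. The difference of 0.88 genes (95% interval 0.34 to 1.41, counting error only) stood beside −1.02 for the pairs by repeat number and 1.34 for the crossed pairs. It was 0.18 with a match distance of 100 bp and 2.01 among loci with no summit of the lacking hairpin within 1000 bp. Its sign turned when a shHNRNPU #1 library was left out, to −0.74 without repeat 1 and −0.31 without repeat 2, and it was 2.49 without shHNRNPU #2 repeat 2.

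**Figure D5:**
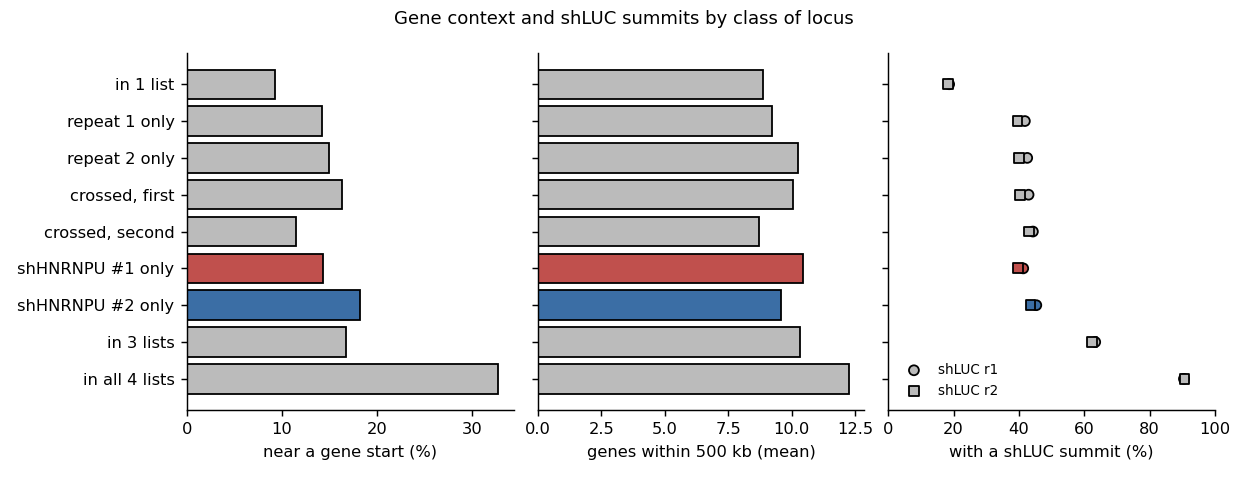
Gene context and shLUC summits by class of locus. Left, percent of loci within 2000 bp of a gene start. Middle, mean number of protein-coding genes within 500 kb. Right, percent of loci with a summit in shLUC repeat 1 (circles) and repeat 2 (squares). The hairpin classes (red and blue) lie close to the classes of loci found in 2 lists by the other pairings, of which 11.5% to 16.3% were near a start, and all of these lie between loci in a single list and loci in all 4 lists in the left and right panels.

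The shLUC libraries, which the rule did not use, held a summit within 250 bp of 41.3% (repeat 1) and 39.8% (repeat 2) of the shHNRNPU #1 loci and of 45.3% and 43.5% of the shHNRNPU #2 loci. For loci in all 4 lists these shares were 90.5% and 90.7%, and for loci in a single list 18.7% and 18.3%. Neither control library had a summit at 1550 (40.7%) of the shHNRNPU #1 loci and 747 (37.2%) of the shHNRNPU #2 loci, beside 38.4% of all loci. The mean share was 3.85 points lower for shHNRNPU #1 by this measure, a difference of −3.85, against −0.60 for the pairs by repeat number and −2.17 for the crossed pairs. With lists of one length the hairpin difference was −0.62. It was −31.4 and −33.0 without shHNRNPU #1 repeats 1 and 2, and 27.7 and 28.5 without shHNRNPU #2 repeats 1 and 2, since the hairpin with 1 list then admits loci that its other list does not hold.

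On most chromosomes the hairpins took like shares of summits. The share of a library's summits did not overlap between hairpins on 3 of 24 chromosomes (12.5%), higher in shHNRNPU #1 on chromosomes 9 and 10 and in shHNRNPU #2 on chromosome 5. With 2 libraries per hairpin such a gap often arises with no effect of the hairpin, and the other pairings were not read for it. Chromosome 20, chosen after its values were seen, had the most uneven split among the autosomes, with 99 shHNRNPU #1 loci and 29 shHNRNPU #2 loci of 2557. By repeat number the chromosome had 79 and 69, and for the crossed pairs 81 and 84. With lists of one length it had 78 and 34. Its share of summits overlapped between the hairpins, with 2.61% and 2.53% for shHNRNPU #1 and 2.44% and 2.56% for shHNRNPU #2.

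Gene lists were read for members within 2000 bp of either end of a gene, which was the case for 761 of 20033 protein-coding genes (3.80%) with shHNRNPU #1 and for 507 (2.53%) with shHNRNPU #2. HNRNPU itself had 2 to 3 summits per library and no hairpin-specific locus. That says nothing of the knockdown, which acts on the transcript. Its relatives and other nuclear matrix genes (12 genes with HNRNPU), the RNA interference machinery (10 genes) and interferon response genes (18 genes), which double-stranded RNA can induce, had no member of either hairpin. Of 12 p53 response genes, ZMAT3, an RNA-binding p53 target, had a shHNRNPU #1 locus, with scores of 4.57 and 9.50. Both shLUC libraries also had a summit there, with 4.08 and 7.91.

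Most pluripotency genes had summits with both hairpins. All 9 markers used to check the cells, among them POU5F1, SOX2 and NANOG, had a summit in each of the 6 libraries, and 8 had a locus in all 4 shHNRNPU lists. Of 20 pluripotency genes, 19 had a locus of any kind within 2000 bp of an end and 16 had one in all 4 lists, LIN28B had no summit within that distance in any library, 3 had a shHNRNPU #1 locus and 1 a shHNRNPU #2 locus. LIN28A, which blocks let-7 maturation, had both: the shHNRNPU #1 locus (chr1:26412518) scored 4.57 and 3.23, and the shHNRNPU #2 locus (chr1:26409692) 3.90 and 3.72. OTX2, a homeobox factor, had a shHNRNPU #1 locus with 5.33 and 6.72, where shLUC had 6.21 and 7.25. ZSCAN10, a zinc finger factor of pluripotent cells, had one with 5.00 and 2.64, where shLUC had none. The nearest shHNRNPU #2 summit lay 263 bp away at ZSCAN10, 335 bp at OTX2 and 2019 bp at the shHNRNPU #1 locus of LIN28A. At the shHNRNPU #2 locus of LIN28A the nearest shHNRNPU #1 summit lay 793 bp away, and shLUC repeat 2 had a summit with 5.56.

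Of 8 genes each for endoderm, mesoderm, neuroectoderm, and trophoblast and amnion, members stood near CXCR4 (endoderm, a chemokine receptor), SOX1 and ZIC1 (neuroectoderm, transcription factors), TFAP2A and ELF5 (trophoblast and amnion, transcription factors), and none near a mesoderm gene. All were of shHNRNPU #1 but that of ELF5. The shHNRNPU #1 scores were 4.75 and 4.14 at CXCR4, 2.58 and 4.27 at SOX1, 4.16 and 4.24 at ZIC1, and 7.47 and 4.93 at TFAP2A. ELF5 had 7.40 and 7.21 with shHNRNPU #2. These were weak calls, with lower score percentiles from 5.17 at SOX1 to 43.7 at ELF5. The nearest summit of the lacking hairpin lay 263 bp away at SOX1, 373 bp at ELF5, 514 bp at ZIC1, 1333 bp at CXCR4 and 2463 bp at TFAP2A. A shLUC summit was present at SOX1 (2.48, repeat 1), ZIC1 (5.68, repeat 2) and ELF5 (4.42, repeat 2), and in neither shLUC library at CXCR4 and TFAP2A. All lists together had 8 of 103 genes with a shHNRNPU #1 locus (7.77%) and 2 with a shHNRNPU #2 locus (1.94%), beside 3.80% and 2.53% of all protein-coding genes, and 92.2% of the listed genes against 78.2% of all had a locus of any kind.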

How the data were processed

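ATAC-seq summit lists of 6 libraries were used, 4 of shHNRNPU and 2 of shLUC, and samples were grouped by title. The article given with the series describes other, mouse libraries and served for style alone. The authors deposited MACS2 summits with a score that is −log10 of a q-value. The submitters' processing notes also name cutadapt, Bowtie2, SAMtools, deepTools and hg38, with no versions, and read filters are not given in the sources used here. Scores were not normalized between libraries and depth is unknown, so scores were compared mainly as percentiles within a list. Loci were built with a match distance of 250 bp (Python 3.11.15, numpy 2.4.6, pandas 2.3.3). The build was matched to RefSeq GRCh38.p14, where 15841 of 20033 protein-coding genes (79.1%) had a start, with none on chromosome 8. The counting of patterns was tested on simulated lists. Exact permutation tests were used, for which 2 libraries per hairpin allow a smallest p of 0.333 (0.5 with the replicate block). Named loci were the 5 highest of each hairpin by lower score percentile, the 5 highest with no summit of the lacking hairpin within 1000 bp, the 10 highest genes with a start within 2000 bp, and listed genes with a member within 2000 bp of an end. A locus that this rule names is not reported here. The members and lists were chosen with earlier results of these data known. Pairs of loci within 1000 bp were looked at after the data were seen. Alternatives were a minimum score of 5, lists of equal length, match distances of 100 and 500 bp, autosomes only, absence within 1000 bp, other gene distances, a replicate block and leaving out each library.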

Additional observations from a re-analysis of the deposited data

How the results depend on the processing

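The count by hairpin lay between the counts by repeat number and crossed in all 6 alternatives that kept the 4 libraries. Of 93 recomputed values, 53 were labelled as unchanged. For counts and for differences between members this meant a value near the reported one. For the Jaccard difference, the excess of non-overlapping percentiles over the other pairings and the share of summits near a start, it meant the same direction alone. The Jaccard difference with a score of at least 5, for example, was 0.00163 beside 1.22e-05 and was labelled as unchanged. With a score of at least 5 there were 3570 members, 2428 of shHNRNPU #1 and 1142 of shHNRNPU #2. Without members that had a summit of the lacking hairpin within 1000 bp, 3692 were left and 1081 of these were of shHNRNPU #2, the difference near a gene start was 2.49 points and that in gene density 2.01 genes, and 10 of the 31 named loci were left. At a match distance of 100 bp, shHNRNPU #2 had 3393 loci, the shLUC difference was −7.57 points and the density difference 0.18. At 500 bp, 20 named loci were left. Genes within 100 kb gave a density difference of 0.18. With lists of one length the Jaccard difference was −0.00201, the share of summits near a start differed by 0.0479 points, with the other sign, the members near a start by 0.43 points and the shLUC share by −0.62 points. Leaving out a library gave 16487 to 20877 members, 7600 to 16395 of shHNRNPU #1 and 4482 to 12278 of shHNRNPU #2, differences near a start from −9.34 to 5.85 points, in shLUC share from −33.0 to 28.5 and in density from −0.74 to 2.49, because a hairpin with 1 list needs no agreement between repeats. The share of summits near a start then differed by −2.95 to −0.49 points.

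With the replicate block, repeat number taken as a pair, the share of summits near a start differed by −1.72 points, from 0.23 in repeat 1 and −3.67 in repeat 2 (exact sign-flip permutation test, two-sided, p = 1, smallest possible 0.5). The labels do not say that a number marks a shared day or infection, and with 2 pairs the data cannot show it.

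Summit lists without reads or signal cannot tell a closed site from one just under the caller's threshold, and a score is not an amount of accessibility. A peak is given by 1 position, so a shift of the summit within a wide region counts as a locus lost and a locus gained. The knockdown reached by each hairpin was not measured in these files.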
